A study of Homo sapiens with 6 samples.

Results

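The genes described here are the core of the G1 checkpoint: the D-type cyclins (CCND1, CCND2, CCND3), their kinases (CDK4, CDK6) and 5 inhibitors of cyclin-dependent kinases (CDKN1B, CDKN1C, CDKN2A, CDKN2C, CDKN2D). They were chosen by name, and all 10 were found among the 60651 gene identifiers of the count tables. RNA came from SK-N-AS, an established human neuroblastoma cell line without MYCN amplification. All cells, controls included, were stably transfected with a tetracycline repressor and a MYCN gene under its control, and single clones were kept in G418 and blasticidin. The 3 control libraries (titled ETOH) were compared with 3 from cells in which tetracycline had switched MYCN on for 120 h, given as 5 d in the treatment protocol. Induction always came with tetracycline, so the effects of MYCN and of tetracycline on these genes cannot be told apart.

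D-type cyclins are the part of the G1 machinery that responds to growth signals. They bind CDK4 or CDK6, and the complexes phosphorylate the retinoblastoma protein RB1, which releases E2F transcription factors and lets cells enter S phase. INK4 inhibitors (CDKN2A, CDKN2C, CDKN2D) bind CDK4 and CDK6 and keep cyclins off them, while CIP/KIP inhibitors (CDKN1B, CDKN1C) act mainly on CDK2 complexes. MYC proteins bind the E-box CACGTG, and in neuroblastoma high cyclin D1 and gains of CDK4 are well known.

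Because MYC proteins bind this sequence, E-boxes before RefSeq transcript starts of these genes are shown first. RefSeq promoter windows on GRCh38.p14 were at hand for 7 of the 10 genes, as 13 windows, with none for CCND1, CCND2 and CDKN1C. In the 250 bases before each start, CACGTG, which reads the same on both strands, was found in 3 of the 13 windows. Over all 35116 windows of this length, 6.34% held it. CDK4 had 3 such sites, a number reached by 0.0797% of all windows, and CDKN2C had 1 before each of 2 of its starts. The E2F sequences TTTCCCGC (1.39% of all windows) and TTTGGCGC (0.55%), searched on both strands and not overlapping the E-box, were in none of the 13. All 250 bases of CCND3 window 1 and CDKN2C window 2 are exon of the same gene in the annotation given with the values. For CCND3 window 3, CDK6 window 2 and CDKN2A window 1, bases after the start were not found in the gene's GENCODE transcripts. The starts of CDK4 and of CDKN2C window 3 lie inside the spans of the gene models given with the values, whose alternative transcripts start further upstream, and 137 bases of the CDK4 window are CDK4 exon in that annotation. These matches are letters in a window and do not show binding. Each site is given with 30 bases on the strand of the gene, with the E-box in capitals.
CDK4 site 1 (chr12:57752509-57752538, minus strand, E-box from 216 bases before the start): atgtcaagcggtCACGTGtgatagcaacag
CDK4 site 2 (chr12:57752489-57752518, minus strand, from 196 bases before the start): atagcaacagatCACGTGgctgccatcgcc
CDK4 site 3 (chr12:57752394-57752423, minus strand, from 101 bases before the start): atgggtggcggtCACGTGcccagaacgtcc
CDKN2C, window 1 (chr1:50960513-50960542, plus strand, from 220 bases before the start): gattgtgcacctCACGTGgttagtcacaca
CDKN2C, window 3 (chr1:50970164-50970193, plus strand, from 69 bases before the start): ttgctgaataatCACGTGtgaatcgagggg

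The values are estimated counts, read pairs on the exons of each gene with pairs over several genes shared equally. The libraries held 64500589 to 102249336 counted pairs. CPM are counts scaled to a common library total after TMM normalization, and levels of different genes are compared as CPM per kb of exons. CPM are relative levels, and spike-in RNA had 0 counts in every library, so amounts per cell cannot be read from them. The study states that oncogenic MYCN amplifies transcription broadly, which can make unchanged transcripts look lower in relative values. Its part in the values here was not tested. MYCN, the induced gene, stood at 30.3, 35.5 and 32.4 CPM in control and 211, 221 and 199 CPM in induced replicates 1, 2 and 3 (log2 fold change 2.68, edgeR adjusted p = 4.15e-05). The first principal component, with 44.8% of the variance, put the controls at -40.3 to -25.9, induced replicates 1 and 2 at 14.4 and 13.1, and induced replicate 3 at 69.1, far from the rest. Of 14 proliferation markers (MCM2 to MCM7, PCNA, MKI67, TOP2A, CDK1, CCNB1, AURKA, PLK1 and BUB1), 13 were below their control mean there, with a median log2 ratio of -0.33. In induced replicates 1 and 2 the medians were 0.13 and 0.21, with 2 and 1 of the 14 below. None of the 14 passed the test in edgeR (lowest adjusted p = 0.343), and 0 had an unadjusted p under 0.05, against 18.7% of all genes tested. The cells expressed the neuroblastoma genes HAND2 (442 ± 96.7 CPM in control) and GATA3 (121 ± 19.6 CPM; SD, n = 3). Of 9 mesenchymal markers, 8 reached a mean of 1 CPM (VIM 364 ± 6.22 CPM in control; SD, n = 3), and CD44 was listed at 0 in every library. Of these 8, 7 had values above 0 on the log2 fold scale, where 50.1% of all genes tested were below 0. In edgeR 6 had an unadjusted p under 0.05, against 18.7% of all genes tested. Of these 6, 1 (NOTCH2, log2 fold change -0.40) was lower in induced cells. None of the 8 passed the test in edgeR (lowest adjusted p = 0.0595). The part of these markers in the values of the 10 genes was not tested. Among 6 immune and 6 epithelial or endothelial markers only PTPRC and CD68 reached a mean of 1 CPM.

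Of the 10 genes, 8 were expressed well enough to be tested and 2 were nearly silent. No tested gene passed an adjusted p of 0.05 in either direction: 0 of 8 in edgeR's quasi-likelihood test, against 3.4% of the 29086 genes tested (1.02% higher and 2.38% lower), and 0 of 8 in DESeq2, against 7.23%. At an unadjusted p under 0.05 there were 2, CCND1 and CDKN2C, both with lower values in induced cells. Of all genes tested, 18.7% were at that level, and 10.6% were so with lower values. CCND1 and CDKN2C were also the only 2 of the 8 whose control and induced CPM did not overlap, where 26.3% of all genes did not overlap, 14.7% with induced values lower. The median log2 fold change of the 8 genes was -0.12, against 0.00 over all genes, and 5 of the 8 were below 0, against 50.1% of all genes. In RNA from whole cultures, fewer cells of a kind and less RNA per cell cannot be told apart.

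In control cells CCND1 had the highest level of the 10 genes, 72.1 ± 5.35 CPM per kb (SD, n = 3), above 98.7% of protein-coding genes by mean control TPM. CDK4 (44.3 ± 0.591 CPM per kb) and CDK6 (39.5 ± 1.22) followed, and the values of these 2 neighbours in the order did not overlap. CDKN1B (16.3 ± 3.10 CPM per kb) led the inhibitors, ahead of CDKN2C (9.60 ± 0.466) and CDKN2A (5.94 ± 0.687). CCND3 (2.32 ± 0.262 CPM per kb) and CDKN2D (1.96 ± 0.219) came next, and these 2 neighbours overlapped. CDKN1C and CCND2 came last, each under 0.02 CPM per kb. The order of the means was the same in induced cells, where CDKN2C (7.80 ± 1.24 CPM per kb) and CDKN2A (6.89 ± 1.03) overlapped, which they did not in control.

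**Figure D1:**
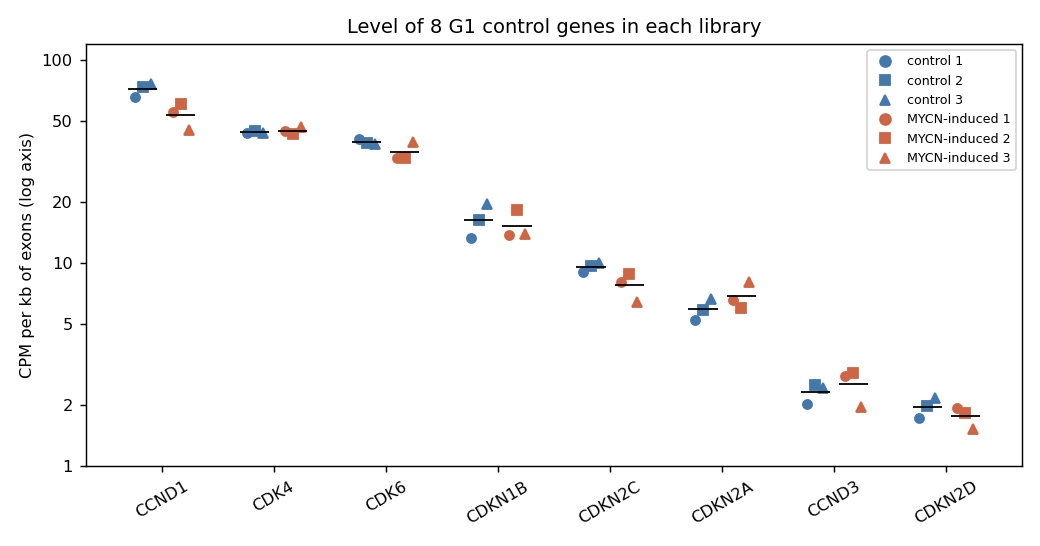
CPM per kb of exons (log axis) of the 8 tested genes in each of the 6 libraries, with control in blue, MYCN-induced in orange and a black line at each group mean. CCND1 was highest in both groups, and CDK4 stayed between 43.0 and 46.7 CPM per kb in all 6 libraries.

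Among the cyclins, CCND1 (ENSG00000110092.4, chr11:69641156-69654474, plus strand), which encodes cyclin D1, was measured at 315, 353 and 363 CPM in control replicates 1, 2 and 3. The induced libraries had 264, 290 and 215 CPM in the same order. All 3 induced values lay below all 3 control values, and replicate 3 was the lowest. In edgeR this was a log2 fold change of -0.42 (SE, the standard error, 0.12; 95% interval -0.69 to -0.16; adjusted p = 0.0991), a level 25.4% lower in point estimate. CCND1 ranked 1926 by p-value among the tested genes. Without MYCN-induced replicate 3 it was -0.30 (edgeR adjusted p = 0.0748). The adjusted p over all alternatives ran from 0.0617 with DESeq2 to 0.327 without control replicate 2, so the gene passed the threshold in none of them. Of its exon bases, 10.4% are shared with LTO1 on the opposite strand, which did not pass the test either (log2 fold change -0.19, edgeR adjusted p = 0.523).

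CCND3 (ENSG00000112576.13, chr6:41934934-42050357, minus strand), which encodes cyclin D3, stood at 11.6, 14.4 and 14.0 CPM in control. In induced replicates 1, 2 and 3 it stood at 16.1, 16.7 and 11.3 CPM. Replicates 1 and 2 were above every control, and replicate 3 was below every control. The log2 fold change of 0.13 had a 95% interval from -0.24 to 0.51 (edgeR adjusted p = 0.722), and with each library left out it ran from 0.03 without MYCN-induced replicate 2 to 0.30 without MYCN-induced replicate 3 (edgeR adjusted p = 0.955 and 0.153). CCND2 (ENSG00000118971.9, chr12:4269771-4305353, plus strand), which encodes cyclin D2, had 0, 1 and 0 counts in control and 3, 0 and 1 in induced libraries. These counts are at or under 3 per library, so no fold is given, and 12.5% of its exon bases also belong to ENSG00000285901 on the same strand. TIGAR, the protein-coding neighbour of CCND2 at a distance of 2410 bases, was expressed at 13.9 ± 0.388 CPM in control cells (SD, n = 3).

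The make-up of D-type cyclin RNA can be read within each library, free of its depth and scaling. CCND1 made up 97.0%, 96.7% and 96.9% of the summed TPM of the 3 cyclins in control replicates 1, 2 and 3. In induced replicates 1, 2 and 3 it made up 95.2%, 95.5% and 95.8%. The share of CCND3 was 2.97%, 3.27% and 3.10% in control and 4.80%, 4.53% and 4.15% in induced libraries. The 2 groups did not overlap for either share, and induced replicate 3 was the nearest to control. For CCND3 the difference of 1.38 percentage points gave p = 0.1 in a two-sided exact permutation test, the smallest that 3 libraries against 3 allow, and 0.167 after Benjamini-Hochberg adjustment over 5 shares. The CCND1 share mirrors that of CCND3, with a difference of -1.39 points and the same p-values from the exact permutation test. The CCND2 share stayed under 0.01% in every library (difference 0.0037 points, exact permutation p = 0.4, 0.5 adjusted).

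CDK4 (ENSG00000135446.17, chr12:57747727-57756013, minus strand), a catalytic partner of the D-type cyclins and the gene with 3 E-boxes above, had the most even values of the group. It stood at 136, 139 and 136 CPM in control replicates 1, 2 and 3 and at 139, 133 and 144 CPM in induced replicates 1, 2 and 3. The groups overlapped. With a log2 fold change of 0.02 (SE 0.06, edgeR adjusted p = 0.903), the 95% interval ran from -0.12 to 0.16, that is from 8.04% lower to 11.8% higher. Its sign turned with the scaling, to -0.0145 when scaled by library size alone and -0.0109 under upper-quartile normalization. A caveat is that 44.2% of the exon bases of CDK4 are shared with TSPAN31 on the opposite strand, and pairs were shared across strands in counting. TSPAN31 measured 84.4 ± 5.01 CPM without and 80.8 ± 4.09 CPM with induction (SD, n = 3; edgeR adjusted p = 0.709).

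CDK6 (ENSG00000105810.10, chr7:92604921-92836573, minus strand), the other partner kinase, stood at 501, 479 and 472 CPM in control. It stood at 402, 404 and 485 CPM in induced replicates 1, 2 and 3. Replicates 1 and 2 were below every control, and replicate 3 lay among the controls. CDK6 had a log2 fold change of -0.17 (SE 0.09, 95% interval -0.37 to 0.03, edgeR adjusted p = 0.353). Leaving out MYCN-induced replicate 3 gave -0.26 with an adjusted p of 0.0218 from edgeR, the only alternative in which any of the 10 genes was called. In that fit 8.01% of all tested genes were called, 4.37% lower. The proliferation markers moved with this library too, as given above, and their part in the value was not tested.

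Per length, CDK6 made up 48.3%, 46.6% and 46.7% of the summed TPM of both kinases in control replicates 1, 2 and 3. It made up 42.3%, 43.4% and 45.9% in induced replicates 1, 2 and 3. The groups did not overlap, although the gap between the nearest libraries was small beside the spread of the induced ones. The difference was -3.32 percentage points (two-sided exact permutation p = 0.1, the smallest possible, and 0.167 adjusted over 5 shares). Pairs shared between CDK4 and TSPAN31 enter this ratio.

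**Figure D2:**
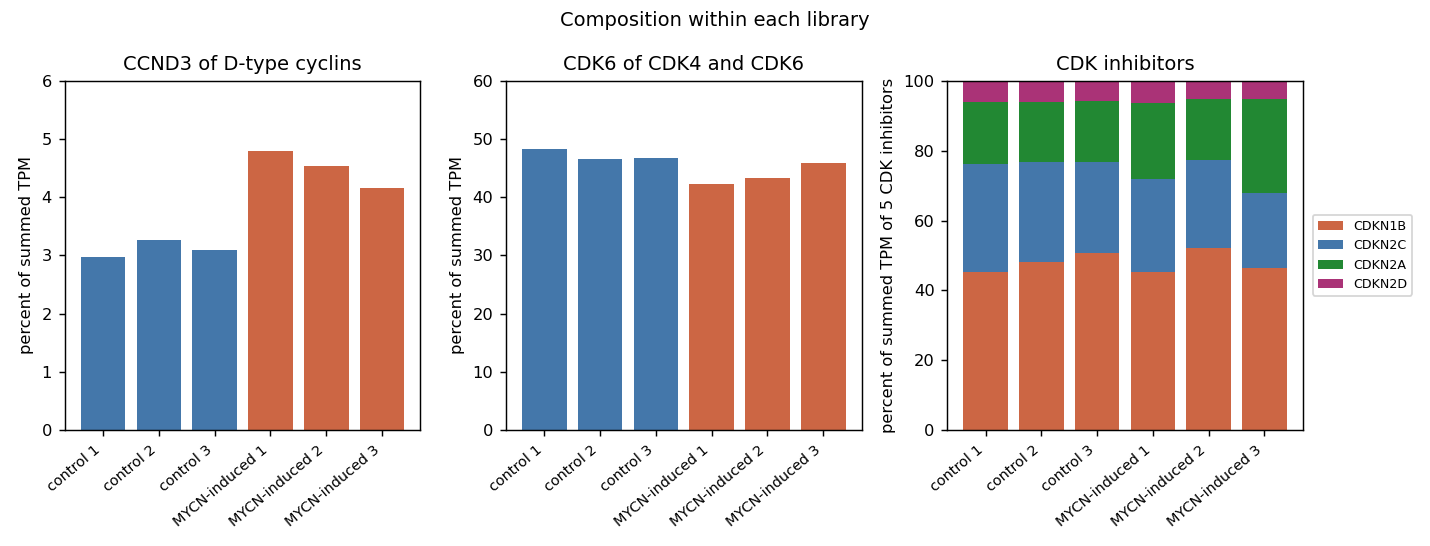
Percent of summed TPM within each library (3 control and 3 MYCN-induced) for CCND3 among the D-type cyclins, CDK6 among both kinases, and the CDK inhibitors as stacked bars with CDKN1C too small to draw. The CCND3 share was 2.97% to 3.27% in control and 4.15% to 4.80% in induced libraries.

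Among the CIP/KIP inhibitors, CDKN1B (ENSG00000111276.11, chr12:12715058-12722369, plus strand), which encodes p27Kip1, stood at 34.0, 41.8 and 49.9 CPM in control. The induced replicates 1, 2 and 3 had 35.2, 46.7 and 35.8 CPM, all within the range of the controls. Its log2 fold change of -0.10 had a 95% interval from -0.47 to 0.28 (edgeR adjusted p = 0.809), and it became 0.05 without control replicate 3. CDKN1C (ENSG00000129757.14, chr11:2883213-2885775, minus strand), an imprinted gene that encodes p57Kip2, had 1, 2 and 5 counts in control and 0, 4 and 7 counts in induced libraries. With 8 counts against 11 in all, no difference was detectable at this depth.

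Among the INK4 inhibitors, CDKN2C (ENSG00000123080.12, chr1:50960745-50974634, plus strand), which encodes p18INK4c and has an E-box before 2 of its starts, stood at 27.4, 29.3 and 30.2 CPM in control. It stood at 24.5, 26.7 and 19.4 CPM in induced replicates 1, 2 and 3. All induced values were below all control values, with replicate 3 the lowest. For CDKN2C edgeR gave -0.30 on the log2 scale (SE 0.12, 95% interval -0.58 to -0.02, adjusted p = 0.241). Without MYCN-induced replicate 3 it was -0.17 (edgeR adjusted p = 0.229), so that library moved the value by over 1.5 times.

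CDKN2A (ENSG00000147889.18, chr9:21967752-21995301, minus strand) encodes both p16INK4a and ARF, which the gene counts do not separate. It stood at 20.5, 22.9 and 25.8 CPM in control and at 25.6, 23.5 and 31.2 CPM in induced replicates 1, 2 and 3. The groups overlapped, and replicate 3 was the highest of the 6 libraries, the reverse of CDKN2C. Its log2 fold change was 0.22 (SE 0.13, 95% interval -0.09 to 0.52, edgeR adjusted p = 0.438), and 0.10 without MYCN-induced replicate 3. CDKN2B-AS1, on the opposite strand with 15.3% of the exon bases of CDKN2A in common, was at 0.37 on the log2 scale (edgeR adjusted p = 0.122). The next protein-coding genes on either side, CDKN2B (log2 fold change 0.41, edgeR adjusted p = 0.273) and MTAP (0.16 and 0.301), were expressed in every library. CDKN2D (ENSG00000129355.7, chr19:10566460-10569059, minus strand), which encodes p19INK4d, had 2.61, 2.98 and 3.26 CPM in control and 2.91, 2.75 and 2.31 CPM in induced replicates 1, 2 and 3. Its groups overlapped (log2 fold change -0.15, 95% interval -0.48 to 0.18, edgeR adjusted p = 0.631), and the value was -0.05 without MYCN-induced replicate 3, -0.07 without control replicate 3 and -0.23 without control replicate 1.

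**Figure D3:**
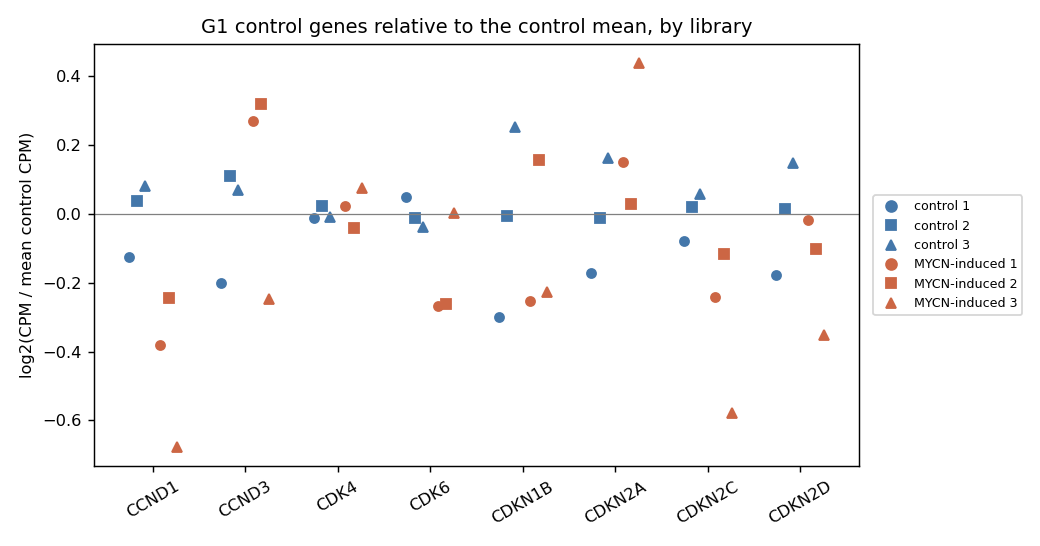
Log2 ratio of CPM to the mean control CPM for the 8 tested genes, with each library as 1 point, control in blue, MYCN-induced in orange and the replicate number as the shape. MYCN-induced replicate 3 (orange triangle) was the lowest library for CCND1 (-0.68), CDKN2C (-0.58), CDKN2D (-0.35) and CCND3 (-0.25). It was the highest for CDKN2A (0.44) and CDK4 (0.08).

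The balance between the inhibitor families overlapped between the groups. CDKN1B and CDKN1C together held 45.2%, 48.1% and 50.9% of the summed TPM of the 5 inhibitors in control replicates 1, 2 and 3. They held 45.2%, 52.1% and 46.6% in induced replicates 1, 2 and 3, nearly all of it CDKN1B. The difference was -0.07 percentage points (two-sided exact permutation p = 0.9, 0.9 adjusted), and its sign rested on single libraries, from -2.14 without MYCN-induced replicate 2 to 1.34 without control replicate 3. The share of CDKN2A was 17.97%, 17.38% and 17.36% in control and 21.7%, 17.3% and 26.8% in induced replicates 1, 2 and 3. Only replicates 1 and 3 lay above the controls.

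Around these 10 genes, 46 others of the RB-E2F pathway were tested in 5 lists, and 0 were higher and 1 was lower at an adjusted p under 0.05 in edgeR. The background was 1.02% higher and 2.38% lower, and 7 of the 46 had an unadjusted p under 0.05, against 18.7% of all genes. DESeq2 called 1 higher and 2 lower, against 3.11% and 4.12% of all genes. The median log2 fold change of the 46 was -0.01. The gene that passed was CDKN1A, which encodes p21, the CIP/KIP inhibitor known as a p53 target. CDKN1A fell from 10.8, 11.7 and 11.2 CPM in control to 5.09, 4.94 and 7.87 CPM in induced replicates 1, 2 and 3. All induced values were below all controls, with replicate 3 the highest of the induced. In edgeR the log2 fold change was -0.91 (SE 0.18, 95% interval -1.33 to -0.49, adjusted p = 0.0411), and DESeq2 gave -0.89 (adjusted p = 0.000312).

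The call for CDKN1A was lost in 5 of the 6 edgeR fits with a library left out. The adjusted p of CDKN1A was then 0.118, 0.180 and 0.137 without control replicates 1, 2 and 3, and 0.137 and 0.0958 without MYCN-induced replicates 1 and 2. In these 5 fits the log2 fold change stayed between -0.94 and -0.79. Without MYCN-induced replicate 3 the adjusted p was 0.00225, with a log2 fold change of -1.15. These fits called between 0.389% and 1.64% of all genes, except the last with 8.01%.

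**Figure D4:**
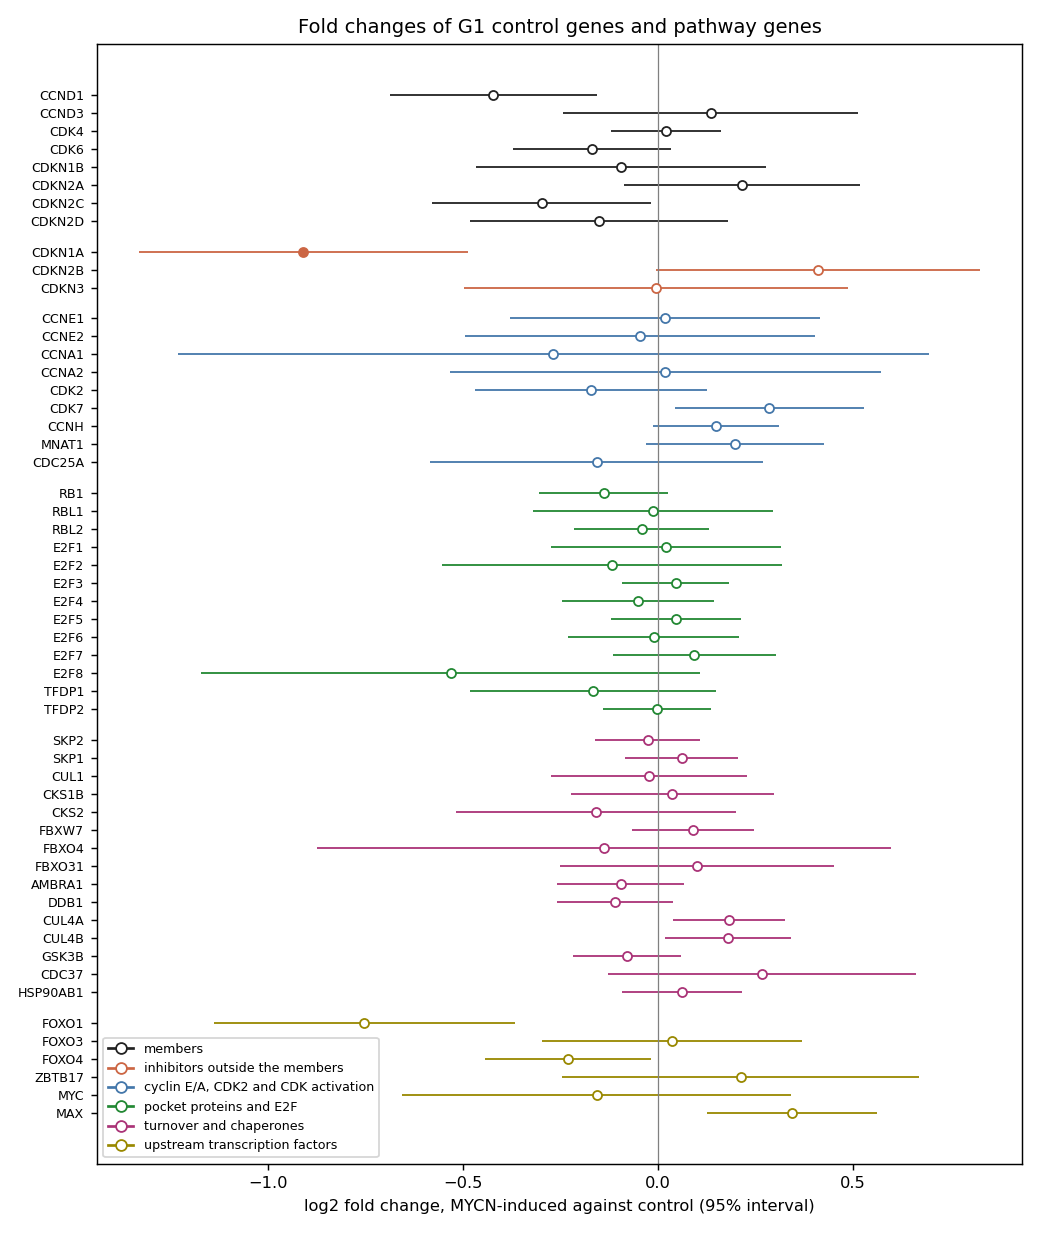
Log2 fold change, MYCN-induced against control, with 95% interval for the 8 tested genes (members, black) and 46 pathway genes in 5 lists by colour; filled points have an adjusted p under 0.05 from edgeR. CDKN1A, at -0.91, is the only filled point, and the interval of CDK4 runs from -0.12 to 0.16.

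The other lists gave no call in the main edgeR fit. Each count below at an unadjusted p under 0.05 stands against 18.7% of all genes tested. Of 13 pocket proteins and E2F factors, 0 passed the test and 0 had an unadjusted p under 0.05. RB1, the substrate of CDK4 and CDK6, stood at a log2 fold change of -0.14 (95% interval -0.31 to 0.03, edgeR adjusted p = 0.350). E2F1, a factor that RB1 restrains, had 0.02 (-0.27 to 0.31, adjusted p = 0.955). Of 9 genes of cyclin E and A, CDK2 and CDK activation, 0 passed and 1 (CDK7) had an unadjusted p under 0.05. CCNE1, the cyclin that follows cyclin D in G1, had 0.02 (-0.38 to 0.42, edgeR adjusted p = 0.973).
Of 15 genes of cyclin and inhibitor turnover and chaperoning, 0 passed and 2 (CUL4A and CUL4B) had an unadjusted p under 0.05. SKP2, which marks p27Kip1 for destruction, was at -0.03 on the same scale (-0.16 to 0.11, edgeR adjusted p = 0.858). Of 6 upstream transcription factors, 0 passed. At an unadjusted p under 0.05 were 3 (FOXO1, FOXO4 and MAX), against 18.7% of all genes. FOXO1, a known activator of CDKN1B, was nearest to the threshold at -0.75 (edgeR adjusted p = 0.0549), and it passed in 6 of 13 alternative fits. MAX, the partner of MYC proteins, had 0.34 (edgeR adjusted p = 0.101) and passed in 2 of 13 alternative fits.

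Of the 24 protein-coding genes that neighbour or overlap the 10 genes, all were tested, and 0 were higher and 2 lower in edgeR, against 1.02% and 2.38% of all genes. AGAP2, 5570 bases from CDK4, fell from 9.18 ± 1.02 to 4.33 ± 0.884 CPM (SD, n = 3; log2 fold change -1.09, edgeR adjusted p = 0.0195). MYEOV, 273430 bases from CCND1, fell from 0.481 ± 0.0172 to 0.226 ± 0.0314 CPM (SD, n = 3; log2 fold change -1.10, edgeR adjusted p = 0.0342). Its counts were low, 52, 41 and 49 in control and 17, 19 and 18 in induced replicates 1, 2 and 3. Neither shares exon bases with the gene it neighbours. With a library left out, AGAP2 kept a log2 fold change of -1.19 to -0.92 and lost its call in 4 of 6 fits (without control replicate 2 or 3 or MYCN-induced replicate 1 or 2). MYEOV kept -1.20 to -1.03 and lost its call in 5 of 6, all but that without MYCN-induced replicate 3.

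**Figure D5:**
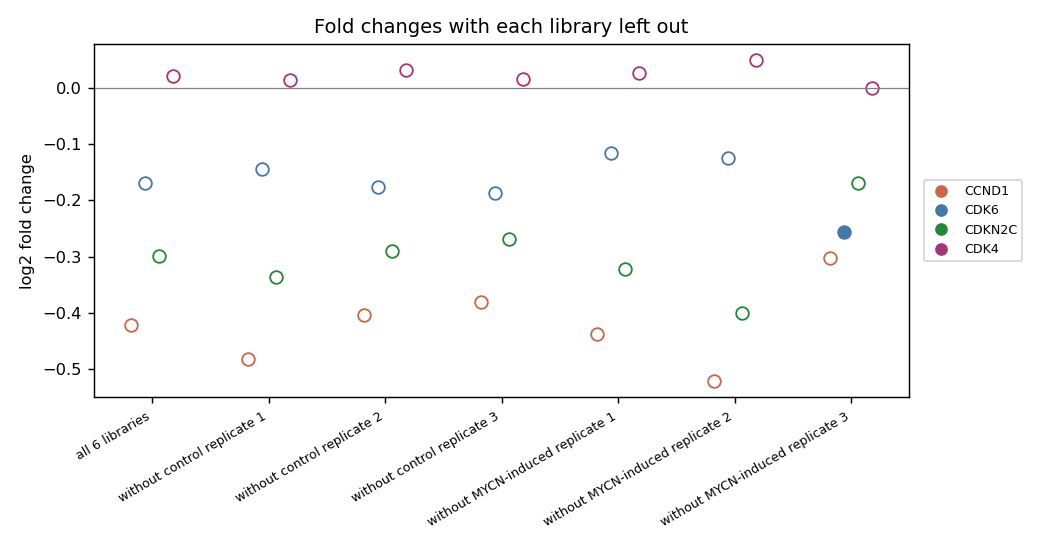
Log2 fold changes of CCND1, CDK6, CDKN2C and CDK4 from edgeR with all 6 libraries and with each library left out; filled points have an adjusted p under 0.05. The only filled point is CDK6 without MYCN-induced replicate 3, at -0.26.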

How the data were processed

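The authors deposited estimated counts per gene: read pairs on exons, summed with featureCounts v1.6.4 per the file headers, from unique STAR alignments, with no strand option and pairs over several genes shared in equal fractions. The submitters' processing notes list STAR 2.7.1a, featureCounts 1.5.1 and GRCh38. Names came from GENCODE release 44 (99.6% of identifiers matched). Libraries came from ribosomal-RNA-depleted total RNA with a stranded kit. The study's methods name a strand setting, while the commands in the file headers name none. Among genes with at least 100 counts in every library, non-whole counts were found in 98.4% of those sharing exons with the opposite strand only and in 58.1% of those sharing none, so these files were read as counted without strand. Groups and replicate numbers were read from sample titles. The labels do not state separate cultures, the study calls them independent experiments, and p-values measure the spread between these samples. Replicates differed by more than sampling noise (chi-square per gene 13.9 to 174).

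Counts were rounded. A gene entered the test when 3 or more libraries each held 10 or more of its counts. edgeR 4.0.16 was run in R 4.3.3 (TMM, quasi-likelihood, Benjamini-Hochberg over 29086 genes, threshold 0.05). Intervals at 95% use the degrees of freedom of the test. DESeq2 1.42.0 was an alternative. Shares were compared by exact permutation. Low counts carry counting error, while the spread between libraries (biological coefficient of variation 0.153) sets the precision of the rest. The tests were first tried on simulated counts with known changes. The genes and lists, written from general knowledge, were chosen with earlier results of these data known. Named genes are the 10 genes, 6 fixed pathway genes, pathway genes past the threshold, neighbours and genes with shared exons, and the 3 genes best correlated with any of the 10 that was called, of which there was none. Pathway genes at an unadjusted p under 0.05 (FOXO1 and MAX among them) were named after their values were seen. So were CCNA2, MNAT1 and MYC, called only without MYCN-induced replicate 3. Alternatives were other normalizations, count filters, unrounded counts, a replicate block and leaving out each library. Those for FOXO1, MAX, MYEOV and AGAP2 were added after seeing the data.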

Additional observations from a re-analysis of the deposited data

How the results depend on the processing

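Of 104 alternative log2 fold changes of the 8 tested genes, 99 had the same sign and the same call. Those that changed sign were CDK4 scaled by library size (-0.0145), under upper-quartile normalization (-0.0109) and without MYCN-induced replicate 3, and CDKN1B without control replicate 3. With each library left out in turn, CDK4 ranged from -0.000859 to 0.0491 and CDKN1B from -0.239 to 0.0503. CDK6 passed the threshold without MYCN-induced replicate 3. Leaving out each library gave 0 to 1 of the 10 genes called lower, and for the pathway genes 0 to 3 called higher and 0 to 3 called lower. The calls at the upper end, CCNA2, MAX and MNAT1 higher and CDKN1A, FOXO1 and MYC lower, came without MYCN-induced replicate 3. That fit called 3.64% of all genes higher and 4.37% lower. MYC stood at 48.8, 53.4 and 56.2 CPM in control and at 37.6, 37.5 and 66.9 CPM in induced replicates 1, 2 and 3. With all 6 libraries its log2 fold change was -0.16 (edgeR adjusted p = 0.757). The count of pathway genes lower was 2 (CDKN1A and FOXO1) under library-size scaling, upper-quartile normalization, DESeq2 and no count filter. These called 1.8% to 4.12% of all genes lower. With DESeq2 1 (MAX) was higher, against 3.11% of all genes. Without division by exon length, the differences in share were -1.65 points for CCND1 and 1.65 for CCND3. E2F1 was at -0.0049 under library-size scaling and -0.0035 under upper-quartile normalization, and from -0.0836 to 0.12 with a library left out. CCNE1 was at -0.0025 and -0.0064 in these 2 normalizations, and from -0.0941 to 0.22 with a library left out. The cause of these changes was not tested. Over all genes, 298 were called higher and 692 lower, against 904 and 1199 in DESeq2, 2329 in all without MYCN-induced replicate 3, and 113 to 477 without any other library. Other normalizations moved the median of all genes by less than 0.1 on the log2 scale.

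The replicate numbers were not used as pairs in the main test. Deviations from the group means correlated across genes at 0.22, -0.02 and 0.07 in pairs 1, 2 and 3. Between unlike numbers the mean correlation was -0.047. So few correlations cannot settle whether the libraries were paired. With the replicate block, 0 of the 10 genes and 2 pathway genes (CDKN1A and FOXO1, both lower) were called (2.89% of all genes), CCNE1 was at -0.0144, CDKN1A had an adjusted p of 0.0339 from edgeR, MYEOV lost its call (0.0656), and CCND1 had 0.102. Within pairs the CCND3 share was higher in 3 of 3 (exact sign-flip permutation p = 0.25, the smallest possible). At this depth CCND2 and CDKN1C cannot be compared.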
